A study of Mus musculus with 32 samples.

Results

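The untreated starting cultures of 2 mRNA-seq time courses were compared, using the libraries collected before doxycycline was added. The differentiation course gave B145T17 and B145T18, and the undifferentiated course gave B144T1 and B144T7. These 4 libraries, chosen by course and by a labelled time of 0 h, are among 22 mRNA-seq libraries and 32 libraries in the series. The values compared were the RNA level of each gene, in RPKM (reads scaled to exon length and library size), and its B6 share, the part of its allele-assigned reads that carried the C57BL/6 allele. Both courses list 13594 genes in common, of which 500 are X-linked.

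All libraries came from TX1072, a female embryonic stem (ES) cell line from a cross of the mouse strains C57BL/6 (B6) and CAST/EiJ (Cast). On its B6 X chromosome, Xist is driven by a promoter that answers to doxycycline, and the Rosa26 locus holds an rtTA transactivator, and both courses share these alleles. One growth protocol is given, on gelatin in serum medium with LIF and the Gsk3 and MEK inhibitors CT-99021 and PD0325901. The labels give the 0 h libraries of the differentiation course the cell type of differentiated ES cells, although the course starts at that time. No label says that the libraries of a course came from separate cultures, so the p-values measure the spread between these libraries, which may be technical. Course and B144 or B145 series are one and the same here and cannot be told apart.

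ES cells held with LIF and both inhibitors are in the naive state, in which Nanog, Pou5f1 (Oct4) and Sox2 keep the pluripotency programme running and both X chromosomes are active. In an F1 hybrid, strain differences in the sequence show which parental chromosome a read came from. A B6 share near 50% means equal RNA from both alleles, and an imprinted gene is one that is expressed mainly from the copy of one parent.

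The markers of pluripotent cells were high in every library. Nanog had 632 and 640 RPKM in the differentiation course, against 520 and 547 RPKM in the undifferentiated course. Pou5f1 had 503 and 525 RPKM in the differentiation course, against 554 and 453 RPKM in the undifferentiated course. Nanog was thus higher in both libraries of the differentiation course, while the Pou5f1 values overlapped. The 5 naive markers Sox2, Zfp42, Esrrb, Klf4 and Tfcp2l1 summed to 737 and 732 RPKM in the differentiation course, against 748 and 732 RPKM in the undifferentiated course. Fgf5, which marks cells leaving the naive state, was at 0.0865 to 0.147 RPKM in the 4 libraries. Lists of other genes that are switched on later did not all order the libraries alike. Of 9 primitive endoderm genes tested, 7 were higher and 2 lower in B144T7 than in B144T1 (77.8% higher, beside 51.1% of all genes). The 9 trophectoderm genes gave the same counts, and of 9 primitive streak genes 6 were higher and 3 lower. Of 12 formative and primed genes tested, 5 were higher and 7 lower in B144T7 than in B144T1, with a median log2 difference of -0.30. More than 1.5-fold apart were 4 of them higher and 1 lower in B144T7, beside 4.59% and 2.76% of all genes. Otx2, another gene of that exit, was at 3.91 and 4.12 RPKM in the differentiation course, against 3.31 RPKM in B144T1 and 12.6 RPKM in B144T7. Eomes, a primitive streak gene, was at 1.33 and 1.34 RPKM in the differentiation course, against 1.56 RPKM in B144T1 and 5.01 RPKM in B144T7. Mixl1, also of the primitive streak, was at 0.622 and 0.486 RPKM in the differentiation course, against 0.450 RPKM in B144T1 and 0.239 RPKM in B144T7. Otx2 and Eomes were thus highest in B144T7, while Mixl1 and Fgf5, both at very low levels in every library, were lowest there. Xist was at 0.0787 and 0.0622 RPKM in the differentiation course, against 0.0437 and 0.0563 RPKM in the undifferentiated course, so it was barely detected in any library. Nanog and Pou5f1 RNA was thus abundant in the libraries labelled as differentiated at 0 h too. In bulk RNA, fewer cells of a type and less RNA per cell cannot be told apart.

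Depth was similar in the 4 libraries, with 64524309 and 81659945 reads behind the RPKM values of the differentiation course, against 63886600 and 69335696 reads in the undifferentiated course, as recovered from the steps of the values. The reads behind the B6 shares of RNA are unknown, so no interval is given for the share of a single library. B144T7 stood apart from the other libraries. The median gene differed by 0.05 on the log2 scale between B145T18 and B145T17, by 0.11 and 0.12 between the differentiation course libraries and B144T1, and by 0.20 and 0.19 between them and B144T7. Between B144T7 and B144T1, the pair of one course, it differed by 0.19. B144T1 therefore lay closer to both libraries of the other course than to the second library of its own. On reads, the mean chi-square per gene, which is 1 when only sampling noise is present, was 5.70 for the pair of the differentiation course and 96.8 for the pair of the undifferentiated course. More than 1.5-fold apart were 6 genes higher (0.0518%) and 11 lower (0.095%) in B145T18 than in B145T17, beside 532 higher (4.59%) and 320 lower (2.76%) in B144T7 than in B144T1. The mean of the differentiation course was more than 1.5-fold higher than B144T1 for 116 genes (1%) and lower for 102 (0.88%), and higher than B144T7 for 317 (2.74%) and lower for 602 (5.2%). No pair of libraries agreed within sampling noise, and each was counted as a separate sample.

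**Figure D1:**
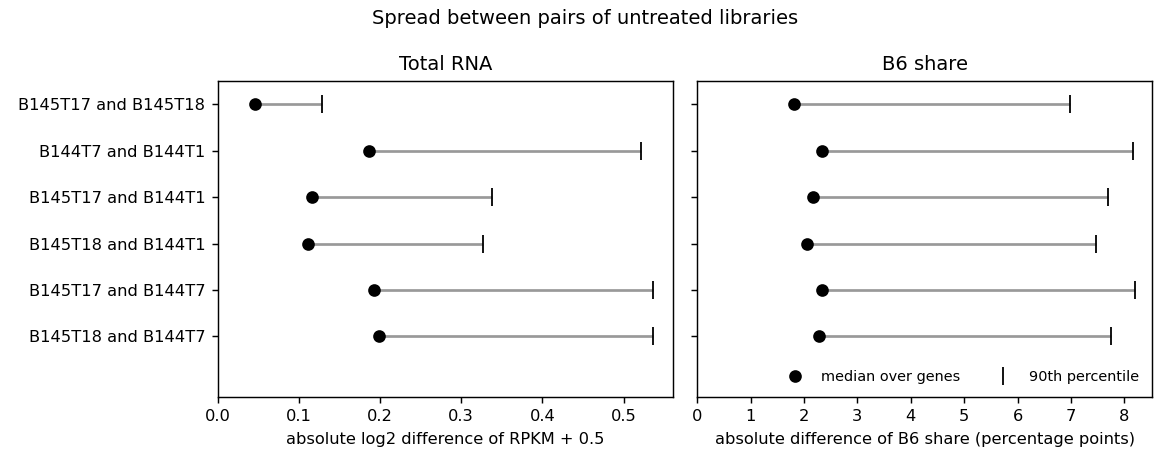
Absolute differences between pairs of the 4 untreated libraries, over 11585 genes for total RNA (left, log2 scale) and 10162 genes for the B6 share (right, percentage points). Dots are medians over genes and bars reach to the 90th percentile. Pairs with B144T7 had the largest total RNA differences, while the share medians of all pairs lay between 1.81 and 2.35 points.

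No gene passed the test for a difference in total RNA between the courses. Of 11585 genes with a mean of at least 0.5 RPKM, 0 (0%) had an adjusted p under 0.05 in either direction by limma (Benjamini-Hochberg adjustment), and the edgeR quasi-likelihood test on recovered reads called 0 of 8009. At an unadjusted p under 0.05, limma gave 1434 genes (12.4%), of which 600 (5.18%) were higher and 834 (7.2%) lower in the differentiation course, and edgeR gave 358 higher and 606 lower. The values of the courses did not overlap for 3011 genes (26%) that were higher and 2984 genes (25.8%) that were lower in the differentiation course. The counts of calls moved with the library left out. Set against B144T1 alone, with B144T7 left out, the fit called 1617 genes higher and 1759 lower in the differentiation course. Set against B144T7 alone, with B144T1 left out, it called 3340 higher and 3406 lower. Both fits take their spread from B145T17 and B145T18 and assume that the lone library varies like them. They called 1769 genes in the same direction, which is 52.4% of the calls against B144T1 and 26.2% of those against B144T7, and 521 genes in opposite directions.

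A stable level was defined by the 95% interval of the log2 difference lying within 0.32 either way, which 2929 of the 11585 genes (25.3%) met. The share of stable genes grew with the level, being 10.1% of genes at 0.5 to 5 RPKM, 31.2% at 5 to 20, 41.8% at 20 to 100 and 47% at 100 RPKM or more. X-linked genes met it in 72 of 367 cases (19.6%) and autosomal genes in 2857 of 11218 (25.5%). Among genes of at least 100 RPKM, those with the narrowest range over the 4 libraries were Hspa8, a constitutive heat shock protein, L1td1, Hspb1, Rpl3, Rpl7a, Usp7, Trp53, Actg1, Ssr3 and Rps14. Hspa8 had 804 and 808 RPKM in the differentiation course, against 797 and 802 RPKM in the undifferentiated course. Trp53, which encodes the p53 protein, had 109.8 and 107.5 RPKM in the differentiation course, against 104.9 and 107.0 RPKM in the undifferentiated course. Actg1, a cytoplasmic actin, had 600 and 590 RPKM in the differentiation course, against 573 and 586 RPKM in the undifferentiated course. Over the 10 genes, the values of all 4 libraries were within a few percent of each other.

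By group, stability was most frequent in the ribosomal protein and cell cycle lists. The interval was within this limit for 47 of 70 ribosomal protein genes (67.1%), 12 of 20 genes of G2 and M phase (60%) and 9 of 18 genes of G1 and S phase (50%), beside 25.3% of all genes tested. The lists were not matched to all genes by level, on which stability depended (10.1% at 0.5 to 5 RPKM, 47% at 100 RPKM or more). Level and list cannot be told apart in these shares. Ribosomal protein genes were nevertheless slightly lower in the differentiation course, with a median log2 difference of -0.09 and 38 of 70 members lower without overlap (54.3%, beside 25.8% of all genes). The libraries of the differentiation course differed from each other by as much, with a median of 0.09 for B145T18 minus B145T17. None of the 13 members tested of the LIF and STAT3 list or of the 15 germline genes whose silencing depends on DNA methylation met the limit. Nor did any of the 26 members of the hypoxia and glycolysis list. The interval also widens with the spread between libraries of a course. For the hypoxia and glycolysis list, the median log2 difference was -0.11 against B144T1 alone and -1.01 against B144T7 alone.

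Among core pluripotency genes, 4 of 11 were stable and the median log2 difference was -0.09, beside 0.00 for all genes tested. Without overlap, 5 of them were lower (45.5%, beside 25.8% of all genes) and 2 higher (18.2%, beside 26%) in the differentiation course. Nanog differed by 0.23 (95% interval 0.06 to 0.40), with an adjusted p of 0.379 by limma. Sox2 had 203 and 208 RPKM in the differentiation course, against 231 and 273 RPKM in the undifferentiated course (log2 difference -0.31, adjusted p 0.382 by limma). Both transcription factors thus kept their libraries apart by course, in opposite directions. Lin28a, an RNA-binding protein that blocks let-7 maturation, had 43.9 and 41.4 RPKM in the differentiation course, against 42.7 RPKM in B144T1 and 18.1 RPKM in B144T7. The naive list had 3 stable members of 20, with 9 lower without overlap (45%) and 3 higher (15%). At an unadjusted p under 0.05 by limma were 7 of the 20, beside 12.4% of all genes. Klf2, a transcription factor, had 89.4 and 92.9 RPKM in the differentiation course, against 113 and 114 RPKM in the undifferentiated course (log2 difference -0.34, adjusted p 0.363 by limma). Spp1, which encodes the secreted protein osteopontin, had 481 and 479 RPKM in the differentiation course, against 371 and 348 RPKM in the undifferentiated course (0.39, adjusted p 0.363). Nr0b1, an X-linked repressor of the naive state network, had 22.1 and 22.7 RPKM in the differentiation course, against 33.3 and 27.0 RPKM in the undifferentiated course (-0.44, adjusted p 0.363).

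Genes that answer to the kinases blocked by the medium were mostly at lower values in the differentiation course. Of 11 ERK response genes, 8 were lower without overlap (72.7%, beside 25.8% of all genes) and 1 was higher, with a median log2 difference of -0.23. Spry2, which restrains growth factor signalling, had 30.9 and 32.2 RPKM in the differentiation course, against 40.9 and 35.8 RPKM in the undifferentiated course. Etv5, an ETS transcription factor, was the member higher without overlap, with 219 and 221 RPKM in the differentiation course, against 202 and 197 RPKM in the undifferentiated course. Of 13 Wnt and beta-catenin targets, 8 were lower without overlap (61.5%) and 0 higher, with a median of -0.18. Tcf7, a Wnt pathway transcription factor, had 21.3 and 21.8 RPKM in the differentiation course, against 28.2 and 26.5 RPKM in the undifferentiated course. Bmp4, a secreted ligand, had 4.71 and 5.07 RPKM in the differentiation course, against 6.92 and 7.63 RPKM in the undifferentiated course. Of the germline genes, 8 of 15 were higher without overlap (53.3%, beside 26% of all genes) and 1 was lower, with a median of 0.13. None of these members passed the test.

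Of the genes with the largest differences and no overlap, several kept a value outside the range of all 12 libraries of the undifferentiated course, the doxycycline-treated ones included. The range takes in the 2 h libraries, which differed widely from each other and can stretch it. Over all genes tested, the 0 h libraries of the differentiation course both lay above that range for 917 genes (7.92%) and below it for 918 (7.92%). Over the 5995 genes without overlap at 0 h, these shares were 15.3% above (915 genes) and 15.3% below (918 genes). The genes outside the range are thus nearly the same ones, since B144T1 and B144T7 are among the 12 libraries. The larger shares come from the smaller number of genes. Apoe, which encodes a lipid transport protein, had 121 and 125 RPKM in the differentiation course, against 221 and 323 RPKM in the undifferentiated course at 0 h, where the 12 libraries ran from 221 to 498 RPKM. Its log2 difference was -1.14 (SE 0.20, adjusted p 0.363 by limma). Cyba, a subunit of the NADPH oxidase, had 7.26 and 7.06 RPKM in the differentiation course, against 12.0 RPKM in B144T1 and 43.3 RPKM in B144T7. Both genes were low in the differentiation course, and Cyba also separated the libraries of the undifferentiated course. Chd3, a chromatin remodeller, had 13.8 and 13.3 RPKM in the differentiation course, against 7.55 and 9.39 RPKM in the undifferentiated course (0.63, SE 0.13, adjusted p 0.363). Calcoco2, an autophagy receptor, had 245 and 249 RPKM in the differentiation course, against 154 and 127 RPKM in the undifferentiated course (0.79, SE 0.11, adjusted p 0.363 by limma). As deposited, its RPKM in the 12 libraries reached 225, which is below both values of the differentiation course. With all 22 libraries scaled together, as for the counts above, its values were not both above the 12 libraries.

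Of the 20 genes with the largest differences, 16 were called both against B144T1 alone and against B144T7 alone, beside 1769 of 11585 genes called in the same direction by both. The genes were chosen from these same libraries for large differences without overlap, which fixes the direction against each library and favours a call. Both fits also share B145T17 and B145T18, so the 16 calls give no independent support. Egln3, Bnip3 and Slc16a3 were called against B144T7 alone only, and Mir1957a against neither. Short RNA genes among the 20 are uncertain, since each lies within another gene on the same strand. Snord100 lies in Rps12, Snord73a in Rps3a1 and Mir1957a in Slc2a1. Snord100 had 17.2 and 15.9 RPKM in the differentiation course, against 48.4 and 38.6 RPKM in the undifferentiated course, while Rps12 differed by only -0.15 on the log2 scale. Snord73a had 7.29 and 7.38 RPKM in the differentiation course, against 18.2 and 16.8 RPKM in the undifferentiated course, with -0.01 for Rps3a1.

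Genes of the hypoxia and glycolysis list set B144T7 apart from the other 3 libraries. These genes encode glucose transporters, glycolytic enzymes and targets of the oxygen-sensing factor HIF, which prolyl hydroxylases such as Egln3 hold down when oxygen is present. Of the 26 members tested, 25 were higher in B144T7 than in B144T1 (96.2%, beside 51.1% of all genes tested), with a median log2 difference of 0.84, beside 0.01 for all genes. Past 1.5-fold were 19 of the 26, beside 4.59% of all genes. This sets 1 library against 1 library, and the list, like the others, was drawn up with earlier results of these data known, so no test was made.

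The 3 members with the largest difference that have a promoter in the RefSeq table are shown, on build GRCm38.p6 from 250 bases before to 50 bases after the start that RefSeq gives. That start lies 14 bases from the GENCODE gene start for Egln3 and 13 for Bnip3, but 5857 bases from it for Ankrd37. Capitals mark ACGTG and GCGTG, the core of the DNA element that HIF binds, on either strand. Where matches overlap they run together.
Egln3 promoter, chr12:54203825-54204124, minus strand: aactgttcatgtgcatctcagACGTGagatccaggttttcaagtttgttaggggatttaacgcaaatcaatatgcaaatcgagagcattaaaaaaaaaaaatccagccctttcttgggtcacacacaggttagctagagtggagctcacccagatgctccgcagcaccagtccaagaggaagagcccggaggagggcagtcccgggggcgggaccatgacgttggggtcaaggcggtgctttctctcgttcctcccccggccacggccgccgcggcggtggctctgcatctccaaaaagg
Ankrd37 promoter, chr8:45999801-46000100, minus strand: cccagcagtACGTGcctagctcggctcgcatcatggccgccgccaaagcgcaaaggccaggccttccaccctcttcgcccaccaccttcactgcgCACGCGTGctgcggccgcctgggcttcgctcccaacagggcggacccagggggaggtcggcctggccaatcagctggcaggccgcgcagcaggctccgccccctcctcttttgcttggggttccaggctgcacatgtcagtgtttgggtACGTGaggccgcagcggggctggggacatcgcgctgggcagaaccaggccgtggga
Bnip3 promoter, chr7:138909457-138909756, minus strand: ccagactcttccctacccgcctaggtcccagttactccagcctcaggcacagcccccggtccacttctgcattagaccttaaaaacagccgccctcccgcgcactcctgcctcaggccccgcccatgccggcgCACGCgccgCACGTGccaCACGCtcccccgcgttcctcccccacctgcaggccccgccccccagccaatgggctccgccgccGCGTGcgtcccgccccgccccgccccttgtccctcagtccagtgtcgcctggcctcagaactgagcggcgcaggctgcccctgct
The Egln3 window held 1 match, the Ankrd37 window 4 and the Bnip3 window 5. At least 1 match was found in 28 of 33 promoter windows (84.8%), which belong to 23 of the 26 listed genes tested. The share was 63.2% for the windows of all genes tested and 43.8% for all 32851 RefSeq windows. Some genes have several windows, base content was not matched, and enrichment was not tested. A match describes these letters only, and binding was not measured.

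Egln3 had 9.62 and 11.9 RPKM in the differentiation course, against 13.01 RPKM in B144T1 and 53.01 RPKM in B144T7. Ankrd37, an ankyrin repeat protein gene, had 8.73 and 11.2 RPKM in the differentiation course, against 8.90 RPKM in B144T1 and 35.6 RPKM in B144T7. Bnip3, which marks mitochondria for removal, had 15.9 and 20.4 RPKM in the differentiation course, against 21.8 RPKM in B144T1 and 62.8 RPKM in B144T7. B144T7 was above B144T1 by 4.00-fold for Egln3, 3.88-fold for Ankrd37 and 2.86-fold for Bnip3 on the log2(RPKM + 0.5) scale, while the other 3 libraries lay closer together. Slc2a1, the glucose transporter GLUT1, had 102.2 and 110.1 RPKM in the differentiation course, against 104.9 RPKM in B144T1 and 261 RPKM in B144T7. Vegfa, a vascular growth factor, had 12.8 and 14.1 RPKM in the differentiation course, against 12.7 RPKM in B144T1 and 31.3 RPKM in B144T7. Ldha, the enzyme that makes lactate, had 285 and 311 RPKM in the differentiation course, against 346 RPKM in B144T1 and 521 RPKM in B144T7. The exception was Pfkfb4, an isoform of the enzyme that sets fructose-2,6-bisphosphate, at 0.817 and 0.796 RPKM in the differentiation course, against 0.703 RPKM in B144T1 and 0.562 RPKM in B144T7.

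**Figure D2:**
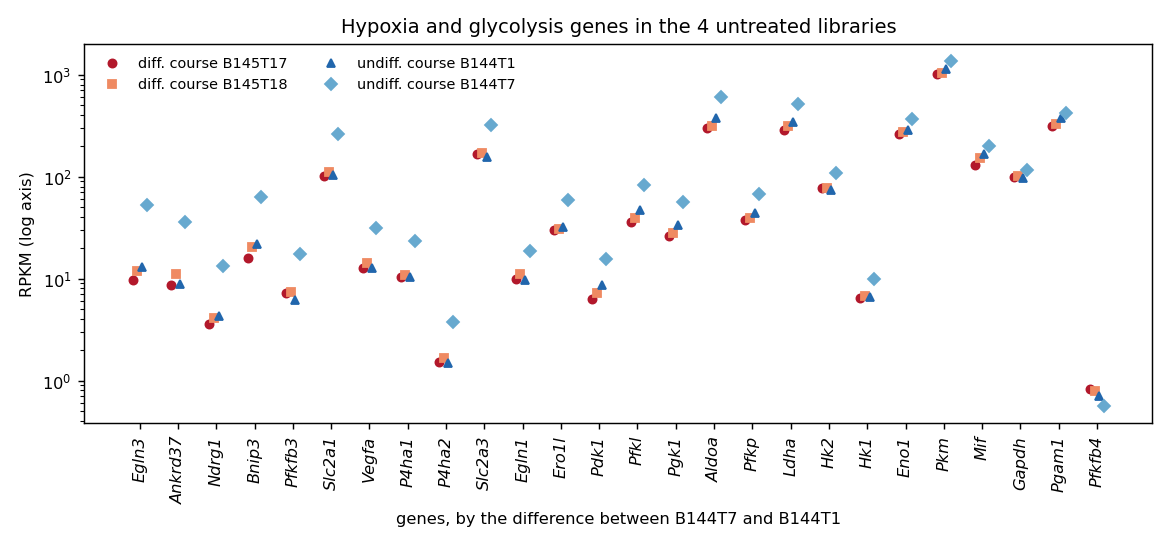
RPKM (log axis) of the 26 hypoxia and glycolysis genes tested in the 4 untreated libraries, 1 point per library, ordered by the difference between B144T7 and B144T1. B144T7 was the highest library for 25 genes, and Pfkfb4 at the right was the exception.

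Between the courses, the list had a median log2 difference of -0.52, with 15 of 26 members lower without overlap (57.7%, beside 25.8% of all genes) and 1 higher. The value depended on the library it was set against. Against B144T7 alone the median was -1.01, and against B144T1 alone it was -0.11. Of the 26 members, 0 passed the limma test (0% of all genes) and 4 had an unadjusted p under 0.05, beside 12.4% of all genes.

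Sterol synthesis genes showed the same order of libraries with a smaller difference. Of 25 cholesterol synthesis genes tested, 22 were higher in B144T7 than in B144T1 (88%, beside 51.1% of all genes), with a median log2 difference of 0.31. Between the courses 18 of 25 were lower in the differentiation course without overlap (72%, beside 25.8% of all genes) and 1 was higher (4%, beside 26%), with a median of -0.34. Against B144T1 alone the median was -0.17, and against B144T7 alone -0.44. Insig1, which retains the sterol sensor in the endoplasmic reticulum, had 57.5 and 61.2 RPKM in the differentiation course, against 69.8 RPKM in B144T1 and 117 RPKM in B144T7. Mvd, an enzyme of the mevalonate pathway, had 33.0 and 33.4 RPKM in the differentiation course, against 40.1 and 39.8 RPKM in the undifferentiated course, so B144T7 and B144T1 lay close together and above the differentiation course (log2 difference -0.29, adjusted p 0.363 by limma).

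Targets of p53 were higher in B144T7 than in B144T1 in 16 of 17 cases (94.1%, beside 51.1% of all genes), with a median log2 difference of 0.28. Cdkn1a, the cell cycle inhibitor p21, had 80.1 and 81.0 RPKM in the differentiation course, against 99.9 RPKM in B144T1 and 139 RPKM in B144T7. Genes of G1 and S phase went the other way, with 16 of 18 lower in B144T7 (beside 48.9% of all genes) and a median of -0.15. Ccnd1, the cyclin D1 gene, had 35.0 and 33.9 RPKM in the differentiation course, against 42.1 RPKM in B144T1 and 16.995 RPKM in B144T7.

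The difference between B144T7 and B144T1 was also there at later times of the course. The library numbers B144T1 to B144T6 and B144T7 to B144T12 each run through 0, 2, 4, 8, 12 and 24 h of doxycycline, 1 library a time. The median log2 difference of the hypoxia and glycolysis list between the second and the first library of a time was 0.84 before doxycycline and 0.52 after 2 h. It was then 0.76 (4 h), 0.91 (8 h), 1.20 (12 h) and 1.16 (24 h), with libraries of all times scaled together. The list was higher in 26 of 26 members at 4 h and 12 h, 24 of 26 at 8 h and 24 h and 17 of 26 at 2 h. At 2 h the pair differed more widely than at any other time, with a median absolute log2 difference of 0.69 over all genes, against 0.18 to 0.28 at the others. Of 70 ribosomal protein genes, 0 were higher in the second library at 2 h, with a median of -1.45, against -0.33 to 0.01 at the other times. Of the 532 genes more than 1.5-fold higher in B144T7 than in B144T1, 98.3% to 99.4% were also higher in the second library at 4, 8, 12 and 24 h and 77.8% at 2 h, beside 53.5% to 54.5% of all genes. Of the 320 genes more than 1.5-fold lower, 0.625% to 1.88% were higher in the second library at 4, 8, 12 and 24 h and 15.3% at 2 h. Over the 11585 genes, Pearson's r of the 0 h difference with the later one was 0.328 at 2 h and 0.707 to 0.842 at 4 to 24 h. These r values describe genes within single pairs of libraries, and genes are not independent replicates.

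**Figure D3:**
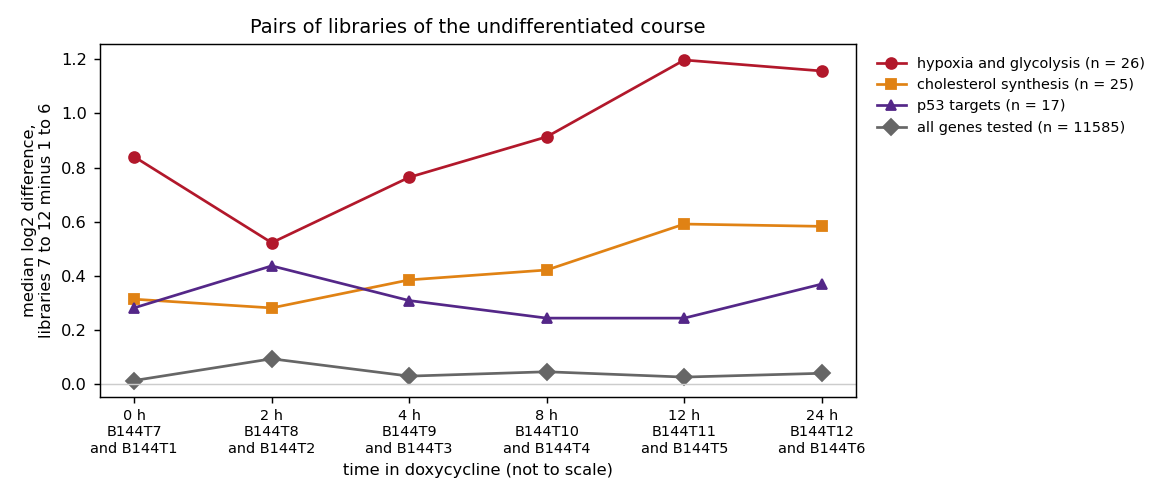
Median log2 difference between libraries numbered B144T7 to B144T12 and libraries numbered B144T1 to B144T6 at the same time in doxycycline, for 3 gene lists and for all 11585 genes. The hypoxia and glycolysis list stayed between 0.52 and 1.20 and all genes between 0.01 and 0.09.

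The untreated libraries of the differentiation course were also set beside each run of numbers. For the hypoxia and glycolysis list, both lay below all of B144T7 to B144T12 in 25 of 26 genes (96.2%, beside 29.8% of all genes). Relative to B144T1 to B144T6, both lay within the range for 12 of 26 genes (46.2%, beside 42.1% of all genes). Both lay above it for 4 (15.4%, beside 23.2%) and below it for 4 (15.4%, beside 20.1%), which is near the shares of all genes. The range of each run takes in a library of the widely differing 2 h pair, which can stretch it. Rps14, for example, reached 1469 RPKM over B144T1 to B144T6, against 499 RPKM over B144T7 to B144T12.

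The B6 share differed little between the courses. Of 10162 genes with a mean of at least 1 RPKM and a share in every library, 1 (0.00984%) passed the test as lower in the differentiation course and 0 (0%) as higher, by limma on the log2 odds with Benjamini-Hochberg adjustment. At an unadjusted p under 0.05 there were 323 higher (3.18%) and 286 lower (2.81%). The gene called was Gm20760, a processed pseudogene on chromosome 4, with 88.9% and 88.6% in the differentiation course, against 100% and 100% in the undifferentiated course (adjusted p 0.00826). It is uncertain, since a processed pseudogene can share reads with its parent gene. The call was lost when the test was made in percentage points, when the share pseudocount was 0.05, or when 1 of the 4 libraries was left out. The share of Gm20760 ran from 60% to 100% over the 9 libraries of the undifferentiated course that had a share.

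Shares were about as close between courses as within them. The median gene differed by 1.81 points between B145T17 and B145T18, by 2.34 points between B144T7 and B144T1, and by 2.06 to 2.35 points between libraries of different courses. The pairs with B144T7 had the highest medians here too, at 2.28 to 2.35 points, against 1.81 to 2.17 points for the other pairs. A stable share, with the 95% interval of the difference within 5 points either way, was found for 2607 of 10162 genes (25.7%). This again depended on the level, with 0% of genes at 1 to 5 RPKM, 18.7% at 5 to 20, 63.9% at 20 to 100 and 84.1% at 100 RPKM or more. Nanog had a B6 share of 49.7% and 50.0% in the differentiation course, against 49.0% and 49.4% in the undifferentiated course. Pou5f1 had 50.8% and 48.7% in the differentiation course, against 47.7% and 46.6% in the undifferentiated course (adjusted p 0.824 by limma). The Pou5f1 shares did not overlap, and the 95% interval of their difference, 0.34 to 4.90 points, lay within the limit. Zfp42, a naive marker, was stably unequal, with 15.8% and 15.9% in the differentiation course, against 15.7% and 19.2% in the undifferentiated course.

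Among the genes with the largest share differences without overlap, most had 0 h values that reached into the range of the undifferentiated course over all its times. Some of the shares, such as 16.6667% and 76% for Sf3a2 or 27.5% for Laptm4a, match ratios of small whole numbers. Few allele-assigned reads may thus lie behind them, whatever the RPKM of the gene. Sf3a2, a splicing factor gene, had 66.7% and 76.0% in the differentiation course, against 16.7% and 43.5% in the undifferentiated course (adjusted p 0.824 by limma). It ran from 16.7% to 80.0% over the 10 libraries of the undifferentiated course that had a share. Pcbp1, an RNA-binding protein gene, had 38.2% and 34.1% in the differentiation course, against 61.1% and 53.8% in the undifferentiated course (adjusted p 0.60 by limma). These values lay within 22.9% to 75.0% over the 11 libraries of the undifferentiated course that had a share. Closer replicates were seen for Cct3, a chaperonin subunit gene named after its values were seen, with 65.0% and 62.8% in the differentiation course, against 53.2% and 53.3% in the undifferentiated course (adjusted p 0.363). Its 12 libraries of the undifferentiated course spanned 48.6% to 69.4%, so the 0 h difference lay within them. Outside that range with both libraries were Blcap, Ddx28, Laptm4a and Mfap1b. Ddx28, an RNA helicase gene, had 59.8% and 60.6% in the differentiation course, against 45.7% and 41.6% in the undifferentiated course (adjusted p 0.531 by limma), whose 12 libraries ran from 41.6% to 59.3%. Laptm4a, a lysosomal membrane protein gene, had 33.3% and 27.5% in the differentiation course, against 44.8% and 43.9% in the undifferentiated course (adjusted p 0.628), whose 12 libraries ran from 35.7% to 70.0%.

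X-linked genes gave nearly the same shares in both courses. The median over 298 X-linked genes was 49.9% and 49.9% in the differentiation course, against 50.6% and 50.6% in the undifferentiated course. None of them passed the test, and 54 (18.1%, beside 25.7% of all genes) were stable within 5 points. All 54 were among the 138 genes of at least 5 RPKM (39.1%, beside 38.5% of all genes at that level). Of all genes at 1 to 5 RPKM, 0% were stable. Without overlap, 42 (14.1%) were higher and 70 (23.5%) lower in the differentiation course, beside 18.5% and 17.4% of all genes. Ogt, a glycosyltransferase gene, had 49.8% and 49.4% in the differentiation course, against 49.5% and 49.2% in the undifferentiated course. Dkc1, whose protein binds telomerase RNA, kept an unequal share of 39.1% and 39.3% in the differentiation course, against 39.3% and 40.0% in the undifferentiated course. Pgk1, a glycolytic enzyme gene, kept 0.430% and 0.461% in the differentiation course, against 0.505% and 0.311% in the undifferentiated course. In untreated PRO-seq its B6 share was 53.2% (251 of 472 reads, 95% Wilson interval 48.7 to 57.6) in library A and 45.6% (350 of 768 reads, 42.1 to 49.1) in library B. At 5 RPKM or more, the largest difference without overlap was that of Mageh1, with 47.5% and 46.3% in the differentiation course, against 53.1% and 52.8% in the undifferentiated course (adjusted p 0.735 by limma).

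The 3 imprinted non-coding RNA genes of one domain on chromosome 12 had higher B6 shares in the differentiation course, though none passed the test. Meg3, Rian and Mirg lie on the plus strand between positions 109541001 and 109749460 of mm10 and are known to be expressed from the maternal copy. Meg3 had B6 shares of 37.2% and 37.3% in the differentiation course, against 24.4% and 26.1% in the undifferentiated course (12.0 points, 95% interval 7.41 to 16.6, adjusted p 0.531 by limma). Rian had 34.3% and 34.7% in the differentiation course, against 26.3% and 23.9% in the undifferentiated course (9.41 points, 95% interval 5.47 to 13.3, adjusted p 0.60). Mirg had 38.6% and 34.9% in the differentiation course, against 27.4% and 21.2% in the undifferentiated course (12.5 points, 95% interval 3.10 to 21.8, adjusted p 0.735). In each gene the Cast allele gave most of the RNA in all 4 libraries, and the B6 share was higher in the differentiation course without overlap.

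Total RNA of these genes was also at higher values in the differentiation course. Rian had 16.98 and 16.2 RPKM in the differentiation course, against 10.6 and 9.46 RPKM in the undifferentiated course (log2 difference 0.68, SE 0.09, adjusted p 0.363 by limma). Meg3 had 8.56 and 7.75 RPKM in the differentiation course, against 4.56 and 6.67 RPKM in the undifferentiated course. The level, rescaled over the 4 libraries, was also multiplied by the share. The B6 copy of Rian then gave 5.77 and 5.56 RPKM in the differentiation course, against 2.80 and 2.29 RPKM in the undifferentiated course. Its Cast copy gave 11.04 and 10.5 RPKM in the differentiation course, against 7.83 and 7.28 RPKM in the undifferentiated course. For Rian both alleles were thus at higher values in the differentiation course, the B6 allele by the larger factor.

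The separation held at the other times of both courses. Over the 10 libraries of the differentiation course the B6 share of Meg3 was 37.2% to 53.8%, against 24.4% to 29.8% over the 12 libraries of the undifferentiated course. Rian ran from 34.3% to 48.0% in the differentiation course, against 23.9% to 29.96% in the undifferentiated course. Mirg ran from 34.9% to 53.4% in the differentiation course, against 19.7% to 32.7% in the undifferentiated course. Of 9632 genes with a share in all 22 libraries, 206 (2.14%) had both 0 h libraries of the differentiation course above every library of the undifferentiated course and 168 (1.74%) below. Over all times, 17 (0.176%) had every library of the differentiation course above every library of the undifferentiated course, and 20 (0.208%) every one below. Meg3, Rian and Mirg were among the 17, as were Prdm14, a naive pluripotency factor, and Rrn3, an RNA polymerase I factor. The later libraries of the differentiation course are of differentiating cells, so this range adds time and treatment to the course. In the untreated PRO-seq libraries, which measure engaged RNA polymerase, Meg3 had 97 B6 reads of 139 in library A (69.8%, 95% Wilson interval 61.7 to 76.8) and 198 of 277 in library B (71.5%, 65.9 to 76.5). These shares cover counting error only, and they lay above 50% where the 4 RNA shares lay below it.

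**Figure D4:**
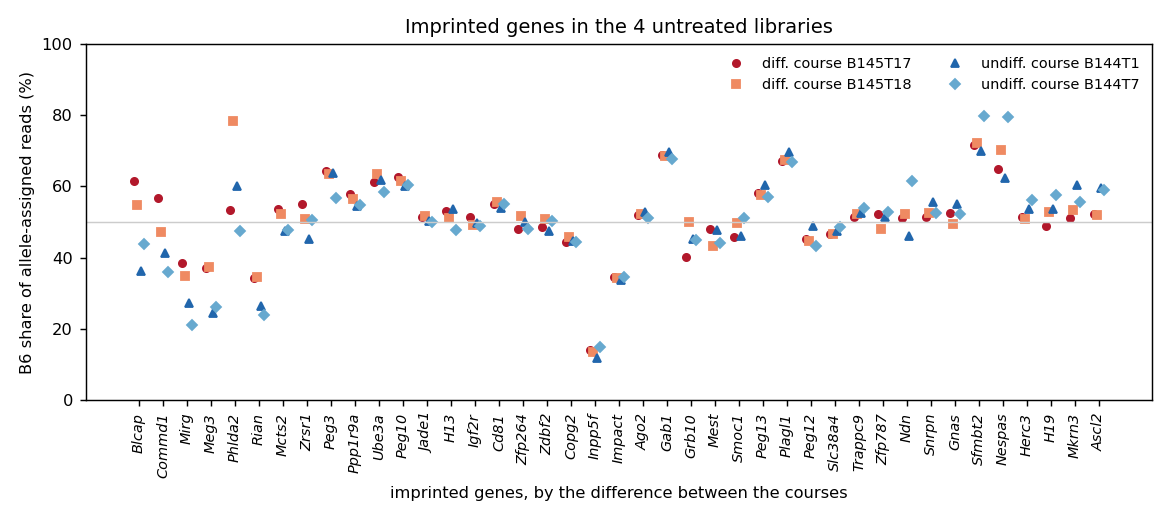
B6 share of allele-assigned reads for the 41 imprinted genes with a share in the 4 untreated libraries, ordered by the difference between the courses. Mirg, Meg3 and Rian separated by course at 21% to 39%, while 23 of the 41 genes had all 4 points between 40% and 60%.

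Imprinted genes as a whole were stable about as often as other genes. Of the 41 tested, Meg3, Rian and Mirg included, 10 (24.4%, beside 25.7% of all genes) were stable within 5 points, and 0 were called. Without overlap, 11 were higher (26.8%) and 7 lower (17.1%) in the differentiation course, beside 18.5% and 17.4% of all genes. Impact had 34.5% and 34.4% in the differentiation course, against 33.8% and 34.6% in the undifferentiated course. Inpp5f, at a low level, had 14.2% and 13.4% in the differentiation course, against 11.7% and 14.9% in the undifferentiated course. Plagl1, a zinc finger gene, had 67.3% and 67.5% in the differentiation course, against 69.7% and 66.95% in the undifferentiated course. The widest gap between the courses without overlap was that of Blcap, with 61.4% and 54.7% in the differentiation course, against 36.3% and 43.8% in the undifferentiated course. Of the 41, 23 had all 4 values between 40% and 60%. H19, which is expressed from the maternal copy in most tissues, had 48.9% and 52.7% in the differentiation course, against 53.6% and 57.7% in the undifferentiated course.

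Whole chromosomes gave the same picture in both courses, with one exception common to all RNA libraries. The median B6 share of 322 genes on chromosome 16 was 34.0% and 34.3% in the differentiation course, against 34.5% and 34.0% in the undifferentiated course. The medians of the other autosomes were between 48.6% and 53.2% in the 4 libraries. On chromosome 16, 298 of 322 genes (92.5%) had a mean share under 50%, against 4102 of 9542 (43%) on the other autosomes. In 6 blocks of genes along the chromosome, the medians ran from 31.8% to 37.1% in the 4 libraries, so the low share extended over its whole length. Over all 22 RNA libraries the chromosome 16 median was 33.8% to 34.5%.

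The untreated PRO-seq libraries did not share this value. There the chromosome 16 median was 50.8% in library A and 52.6% in library B, over 272 genes with at least 100 allele reads in both. Chromosome 3 was low instead, at 40.5% and 41.7% over 391 genes, while its RNA median was 52.4% and 52.8% in the differentiation course, against 52.7% and 52.4% in the undifferentiated course. The remaining autosomes had PRO-seq medians of 50.1% to 53.5%. PRO-seq and mRNA-seq are different assays on different libraries, and no test was made between them.

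**Figure D5:**
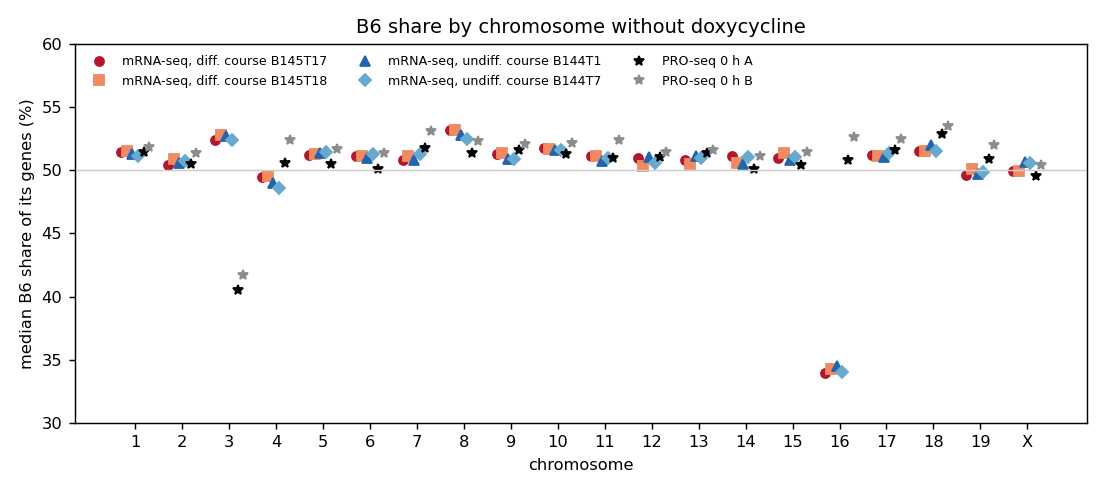
Median B6 share (%) of the genes on each chromosome in the 4 untreated mRNA-seq libraries and in the 2 untreated PRO-seq libraries. Chromosome 16 lay at about 34% in mRNA-seq and above 50% in PRO-seq, and chromosome 3 near 41% in PRO-seq only.

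Total RNA by chromosome was even between the courses. The median log2 difference per chromosome ran from -0.03 on chromosome 10 to 0.04 on chromosome 8, and was 0.00 on both chromosome 16 and the X. The median share of a chromosome differed by at most 0.726 points between the courses, on chromosome 4.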

How the data were processed

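mRNA-seq libraries were made with a stranded poly(A) kit, per the labels' protocols. The authors deposited RPKM values and, as a fraction, the share of allele-assigned reads from the B6 allele; the submitters' processing notes name HTSeq 0.6.1, SAMtools, TopHat2 2.1.0, Bowtie 1.0.0 and cutadapt 1.8.2, and the build mm10. The deposited PRO-seq tables hold allele-specific read counts per gene. Values of 46 further columns were not used.

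RPKM were rescaled over the 4 libraries by median ratios (factors 0.9884 to 1.01) and tested with limma 3.58.1 (R 4.3.3; trend, robust) on log2(RPKM + 0.5) at a mean of at least 0.5 RPKM, so fold changes of low genes are understated. Shares were tested on log2 odds with a pseudocount of 0.01 at a mean of at least 1 RPKM. All tests are two-sided with Benjamini-Hochberg adjustment over all genes tested and a threshold of 0.05. Steps in the RPKM gave whole reads in all 4 libraries for 9548 of 13594 genes (70.2%, tolerance 0.002), and edgeR 4.0.16 was run on these reads as an alternative added after seeing the data. An exact permutation test of 2 against 2 cannot go below 0.333. The PRO-seq medians use genes with at least 100 allele reads. Wilson intervals on PRO-seq shares cover counting error only, and intervals on RNA differences come from the spread between libraries. The tests were tested on simulated data.

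Named genes were the 10 largest differences each way with a mean log2 of at least 3 and no overlap between courses (none passed the threshold), the 10 genes of at least 100 RPKM with the smallest range, the markers, and members of the lists. Members and lists were chosen with earlier results of these data known. Promoters are from RefSeq (GRCm38.p6).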

Additional observations from a re-analysis of the deposited data

How the results depend on the processing

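No paired analysis was possible because the labels of the RNA libraries carry no replicate numbers and no library number is shared between the courses. For total RNA, leaving out 1 library gave 0 to 3340 genes higher and 3 to 3406 lower in the differentiation course, with the lone library assumed to vary like the pair, and 0 to 8082 stable levels. The fit of all 22 libraries, which has no term for the runs B144T1 to B144T6 and B144T7 to B144T12, gave 959 stable levels, and a limit of 1.5-fold gave 8627. For the B6 share, a minimum of 10 RPKM gave 1 gene higher and 0 lower, the fit of all 22 libraries 2 higher and 0 lower, and a share pseudocount of 0.001 gave 3 higher and 2 lower. A share pseudocount of 0.05, percentage points and a variance trend on the odds each gave 0 lower. Leaving out 1 library gave 0 to 2 higher, 0 lower and 826 to 1861 stable shares, and a limit of 10 points gave 7158 stable shares. The X median at a mean of at least 5 RPKM was 49.7% in the differentiation course and 50.2% in the undifferentiated course. Without rescaling, the chromosome medians of the log2 difference ran from -0.0079 to 0.058, and leaving out 1 library put the lowest between -0.046 and -0.029. The cholesterol list median ran from -0.44 to -0.17. The cause of these shifts was not tested. Over the single named genes, 383 values kept their direction and side of the threshold, 40 passed it only under an alternative, and 6 no longer passed it. The number of libraries limits the precision of every test, and the reads behind each RNA share are unknown.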
